A study of Mus musculus with 16 samples.

Results

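The genes described here are the 107 protein-coding genes of the mitochondrial respiratory chain in mouse skin, of 32078 genes in the table. They were chosen by name: symbols beginning Nduf, Uqcr, Cox4i, Cox5, Cox6, Cox7, Cox8 or Atp5, the genes Cyc1, Sdha, Sdhb, Sdhc and Sdhd, and the mt-Nd, mt-Co, mt-Cytb and mt-Atp genes. Of these, 94 are encoded in the nucleus and 13 in mitochondrial DNA, and the 2 kinds are given apart throughout. RNA sequencing had been run on whole skin of mice 7 weeks old, after topical treatment. The groups were SDS with Topsym at days 0, 1, 3 and 5, and SDS alone at the same 4 days, with 2 libraries in each of the 8 groups. Every group therefore shares the SDS label, also at day 0. The labels speak of 4 days of treatment while the sample names run to day 5, and what the day 0 skin had received, and when, is not given. Topsym is a trade name of fluocinonide, a glucocorticoid used on skin; this is background and is not stated in the labels. Separate animals are not stated for the libraries, so p-values reflect differences between the libraries of a group, and these may be of technical origin.

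Oxidative phosphorylation passes electrons from NADH through complex I, or from succinate through complex II, to ubiquinone, then through complex III and cytochrome c to complex IV, where oxygen is reduced. Complexes I, III and IV pump protons, and complex V, the ATP synthase, uses the gradient to make ATP. Complex II is encoded wholly in the nucleus, while the other complexes need subunits from both genomes. Some complex IV subunits exist as a form found in heart and skeletal muscle and a form found in most tissues, so in whole skin, which includes a muscle layer in mice, the forms also carry information on the tissue sampled.

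Many respiratory chain promoters are known to hold sites for NRF1, GABPA, YY1 or ESRRA, factors tied to mitochondrial biogenesis. Promoter windows of 300 bases, 250 before to 50 after the RefSeq start in GRCm38.p6, were found for 75 of the 94 nuclear genes. The core motif of NRF1, of which the capitals in Atp5k are a match, allows any base at 1 central position. It was present, on either strand, in 19 of the 75 (25.3%), against 5.19% of all 27025 genes with a window. A gene counted once, if any of its windows held a match. For YY1, aagatggcg was in 8 (10.7%) against 1.64% of all genes with a window. For ESRRA, tcaaggtca was in 2 (2.67%) against 0.466%, and for GABPA, ccggaagt was in 5 (6.67%) against 4.31%. At least 1 of these motifs was in 30 of the 75 genes (40.0%), against 10.8% of all genes with a window. A match is only a run of letters and not a binding site. Promoters are shown for Atp5k and Uqcr11, which were among the largest Topsym differences at day 5, for Ndufs6 and Atp5g3, which each hold 2 motifs, and for Cox7a1, a muscle form whose window holds none; they were picked after the values were seen. Capitals mark the motif matches. The windows lie at chr5:108434350-108434649 for Atp5k, chr10:80406772-80407071 for Uqcr11, chr13:73328433-73328732 for Ndufs6 and chr2:73911277-73911576 for Atp5g3, all on the minus strand, and at chr7:30183921-30184220 on the plus strand for Cox7a1. Each is written 5′ to 3′ on the gene's strand, and the matches are to NRF1 in Atp5k, GABPA in Uqcr11, NRF1 and YY1 in Ndufs6, and ESRRA and NRF1 in Atp5g3.
Atp5k: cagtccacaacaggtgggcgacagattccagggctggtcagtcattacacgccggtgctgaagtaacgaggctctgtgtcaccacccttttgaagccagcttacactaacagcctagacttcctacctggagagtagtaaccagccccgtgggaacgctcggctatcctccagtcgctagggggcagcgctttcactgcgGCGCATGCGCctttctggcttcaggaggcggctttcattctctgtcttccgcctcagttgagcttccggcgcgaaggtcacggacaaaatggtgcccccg
Uqcr11: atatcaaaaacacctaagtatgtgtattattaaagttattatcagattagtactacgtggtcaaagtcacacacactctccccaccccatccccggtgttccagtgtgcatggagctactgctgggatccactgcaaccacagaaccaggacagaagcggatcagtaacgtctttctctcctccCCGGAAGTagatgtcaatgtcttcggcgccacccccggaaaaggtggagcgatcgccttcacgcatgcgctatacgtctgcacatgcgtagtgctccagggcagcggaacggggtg
Ndufs6: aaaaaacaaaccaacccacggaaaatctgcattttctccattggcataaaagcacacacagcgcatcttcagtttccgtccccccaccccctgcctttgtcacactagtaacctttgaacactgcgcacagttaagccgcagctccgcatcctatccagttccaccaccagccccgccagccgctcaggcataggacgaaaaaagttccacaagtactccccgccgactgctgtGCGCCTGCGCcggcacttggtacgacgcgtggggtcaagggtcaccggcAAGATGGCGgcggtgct
Atp5g3: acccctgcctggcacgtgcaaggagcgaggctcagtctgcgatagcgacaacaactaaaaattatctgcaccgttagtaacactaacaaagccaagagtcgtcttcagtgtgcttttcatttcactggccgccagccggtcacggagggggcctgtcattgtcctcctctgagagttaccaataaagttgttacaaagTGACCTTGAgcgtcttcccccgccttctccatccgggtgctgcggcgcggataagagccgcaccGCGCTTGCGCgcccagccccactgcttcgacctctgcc
Cox7a1: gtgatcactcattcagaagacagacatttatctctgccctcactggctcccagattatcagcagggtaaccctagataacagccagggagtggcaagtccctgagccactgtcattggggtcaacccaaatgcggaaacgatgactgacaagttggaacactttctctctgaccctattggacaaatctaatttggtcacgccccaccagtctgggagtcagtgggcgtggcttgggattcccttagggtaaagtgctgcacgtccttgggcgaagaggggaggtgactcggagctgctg

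Several mitochondrial genes cannot be separated cleanly from nuclear copies. A stretch of chromosome 1, chr1:24611535-24615565 in GRCm38, holds pseudogenes of mt-Co2, mt-Atp6, mt-Co3, mt-Nd3, mt-Nd4l and part of mt-Nd4. Gm10925 matched mt-Atp6 at 678 of 678 aligned bases, and the table gave it more reads than the mitochondrial gene: it averaged 13762 normalised reads over the 16 libraries, and mt-Atp6 averaged 4762. Gm28661 likewise averaged 11687 where mt-Co2 averaged 7324. Gm28438 differed from mt-Nd3 at 1 of 345 aligned bases, T3C, counted from the first base of the mitochondrial transcript. The first 18 bases are shown because this is the only letter in the aligned part by which a read could be told apart, and the capital marks it.
mt-Nd3: atTaacctgtacactgtt
Gm28438: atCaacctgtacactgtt
The levels of mt-Atp6, mt-Co2, mt-Co3, mt-Nd3 and mt-Nd4l are therefore uncertain. For mt-Nd4, Gm28439 matched 876 of its 1378 bases without a difference, and averaged 3893 reads where mt-Nd4 averaged 47460.5. Copies were sought only among annotated transcripts. For mt-Co1, mt-Cytb, mt-Nd1, mt-Nd2, mt-Nd5 and mt-Nd6 the closest of these averaged under 100 reads or was not in the table. The closest for mt-Atp8 was not in the table either. The chromosome 1 stretch has bases between Gm28661 and Gm10925 that neither covers. A copy of mt-Atp8 outside annotated transcripts was not looked for, so its level is uncertain too. The gene mt-Nd6 lies on the strand opposite to the rest and overlaps the end of mt-Nd5, mt-Atp8 overlaps mt-Atp6 and mt-Nd4l overlaps mt-Nd4; the sources used here do not give the strand setting of the counting, so overlapping genes may share or split reads.

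Values are the authors' normalised reads, that is, reads divided by a factor for each library's depth. Libraries held between 15199656 and 32066246 reads. The share of the 10 highest genes was 4.91% to 14.8%, largest in the day 5 libraries of SDS with Topsym. All 107 genes passed the filter on low values. Per kilobase of exon, mean levels over all libraries were highest for mt-Co1 (102626 normalised reads per kilobase), the catalytic core subunit of complex IV, followed by mt-Nd1 (90427) and mt-Cytb (89499), and lowest of the 13 for mt-Atp8 (398). Nuclear genes were lower per kilobase than the leading mitochondrial genes: Cox6a1 (5751), Cox6b1 (5697), Atp5a1 (5236) and Atp5b (5207) stood highest, and Ndufb2 (17.9), Cox6b2 (35.9) and Cox4i2 (40.3) lowest.

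As a share of all reads, mitochondrial RNA was lowest at day 5 and nuclear chain RNA highest. In skin given SDS with Topsym, the 13 mitochondrial genes took 2.21% ± 0.427 of reads at day 0, 2.70% ± 0.00827 at day 1, 3.04% ± 0.0593 at day 3 and 1.12% ± 0.129 at day 5 (SD, n = 2 each). In skin given SDS alone they took 3.48% ± 0.424 at day 0, 2.43% ± 0.111 at day 1, 2.22% ± 0.200 at day 3 and 1.68% ± 0.0762 at day 5. The peak was at day 3 with Topsym and at day 0 without it. The 94 nuclear genes took 0.886% ± 0.0325, 0.825% ± 0.00401, 0.882% ± 0.00254 and 1.22% ± 0.0241 over the same days with Topsym, and 0.920% ± 0.0294, 0.767% ± 0.0212, 0.864% ± 0.0272 and 1.01% ± 0.0115 without it. In bulk skin, fewer cells of a type and less RNA per cell cannot be told apart.

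**Figure D1:**
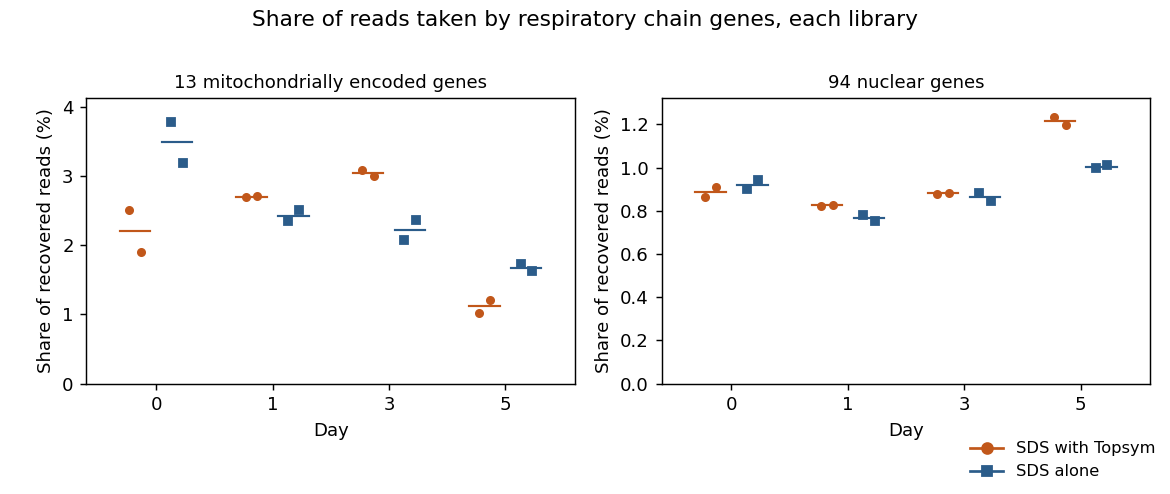
Share of all reads, in percent, taken by the 13 mitochondrial genes and by the 94 nuclear genes in each library (y axes) by day (x axis); orange circles are SDS with Topsym, blue squares SDS alone, and bars the mean of 2 libraries. The mitochondrial share was lowest and the nuclear share highest at day 5, most clearly with Topsym.

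During SDS alone, most mitochondrial transcripts were lower on the later days than at day 0, and mt-Nd3 rose at day 5. At day 1, 8 of the 13 fell and 0 rose, with a median log2 change of -0.52, while 13.5% of all 19189 genes tested fell and 12.8% rose, with a median of -0.031. A gene counted as changed if its adjusted p in limma, with Benjamini-Hochberg adjustment over all genes tested, was under 0.05. Changes are differences of log2(value + 1), which understates the change of genes with few reads. At day 3, 12 fell and 0 rose (median -0.78), against 24.2% and 25.4% of all genes. At day 5, 9 fell and 1 rose (median -0.65), against 35.8% and 30.7% of all genes. In either direction, 26.2%, 49.6% and 66.5% of all genes were called at days 1, 3 and 5. The day 1 count rests on few libraries: it was 4 without replicate 1 of SDS alone at day 0, and also 4 without replicate 1 at day 1.

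mt-Co1 shows the course. Its libraries held 222434 and 205200.2 normalised reads at day 0 of SDS alone, 146572 and 156584 at day 1, 139429 and 148856 at day 3 and 144934 and 136915 at day 5. All 6 later libraries lay below both day 0 libraries. The change was -0.50 on the log2 scale at day 1 and -0.57 at day 3, and at day 5 it was past the threshold as well (log2 -0.60, SE 0.066, adjusted p = 5.77e-07). mt-Nd2, a core membrane subunit of complex I, fell further with time: its libraries held 80187 and 58595 reads at day 0, 41663 and 46459.5 at day 1, 35849 and 43479.6 at day 3 and 27484 and 23926 at day 5. The log2 changes were -0.64, -0.80 and -1.42 in that order of days. mt-Nd4 and mt-Nd4l, further membrane subunits of complex I, fell by 1.18 and 1.50 at day 5, and mt-Nd5 fell by 0.89.

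Other mitochondrial genes had their lowest levels at day 3. mt-Atp6, the proton channel subunit of complex V, had 6729.7 and 6048 reads at day 0, 5150.2 and 4635 at day 1, 2799 and 3159 at day 3 and 4219.7 and 6155 at day 5. Only the day 3 change was past the threshold (log2 -1.10, SE 0.17, adjusted p = 5.38e-05), and Gm10925 changed in the same direction (log2 -1.27, adjusted p = 0.00021). mt-Co2 and mt-Co3, core subunits of complex IV, fell by 0.90 and 0.97 at day 3, and were at -0.14 (not past the threshold) and -0.41 at day 5. mt-Cytb, the only mitochondrial subunit of complex III, fell at days 1, 3 and 5 by 0.48, 0.50 and 0.71. mt-Nd3 was the exception at day 5: its libraries held 326 and 367 reads at day 5 and 278 and 211 at day 0, and it rose (log2 0.51, SE 0.18, adjusted p = 0.0179). That call was lost under some alternatives: the change was 0.31 without replicate 2 of day 0 and 0.43 without replicate 2 of day 5, neither past the threshold, it was 0.18 when scaled to total reads, and it was 0.15 when mt-Nd3 was summed with Gm28438 (adjusted p = 0.382).

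With Topsym the course ran the other way until day 3. Against day 0 of the same treatment, 6 of the 13 rose and 0 fell at day 1 (median 0.23), with 20.3% of all genes rising and 20.5% falling. At day 3, 9 rose and 0 fell (median 0.43), against 27.0% and 28.2% of all genes. At day 5, 0 rose and 9 fell (median -0.49), against 32.8% and 37.5%. In either direction, 40.8%, 55.2% and 70.2% of all genes were called at those days. mt-Co1 had 142093 and 123562 reads at day 0 with Topsym, 182134 and 183727 at day 1, 194070.3 and 193429.5 at day 3 and 103047 and 113928 at day 5. Both libraries of day 1 and of day 3 lay above both of day 0, and both of day 5 lay below them. mt-Nd2 had 38365 and 24798 reads at day 0, 52328 and 53973 at day 1, 66793 and 63371 at day 3 and 14372 and 19334 at day 5, with the same order of days. mt-Atp8, a small accessory subunit of complex V with few reads, rose most at day 3 (log2 1.87, SE 0.31, adjusted p = 6.61e-05). The day 0 baseline was uneven: its 2 libraries held 85905 and 59028 reads of mt-Nd1. Without replicate 2 of that group the day 1 count was 2, without replicate 2 of day 1 it was 3, and without replicate 1 of day 0 the day 5 count was 5. When the fit held only the compared libraries, the counts were 3 at day 1 and 5 at day 5.

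**Figure D2:**
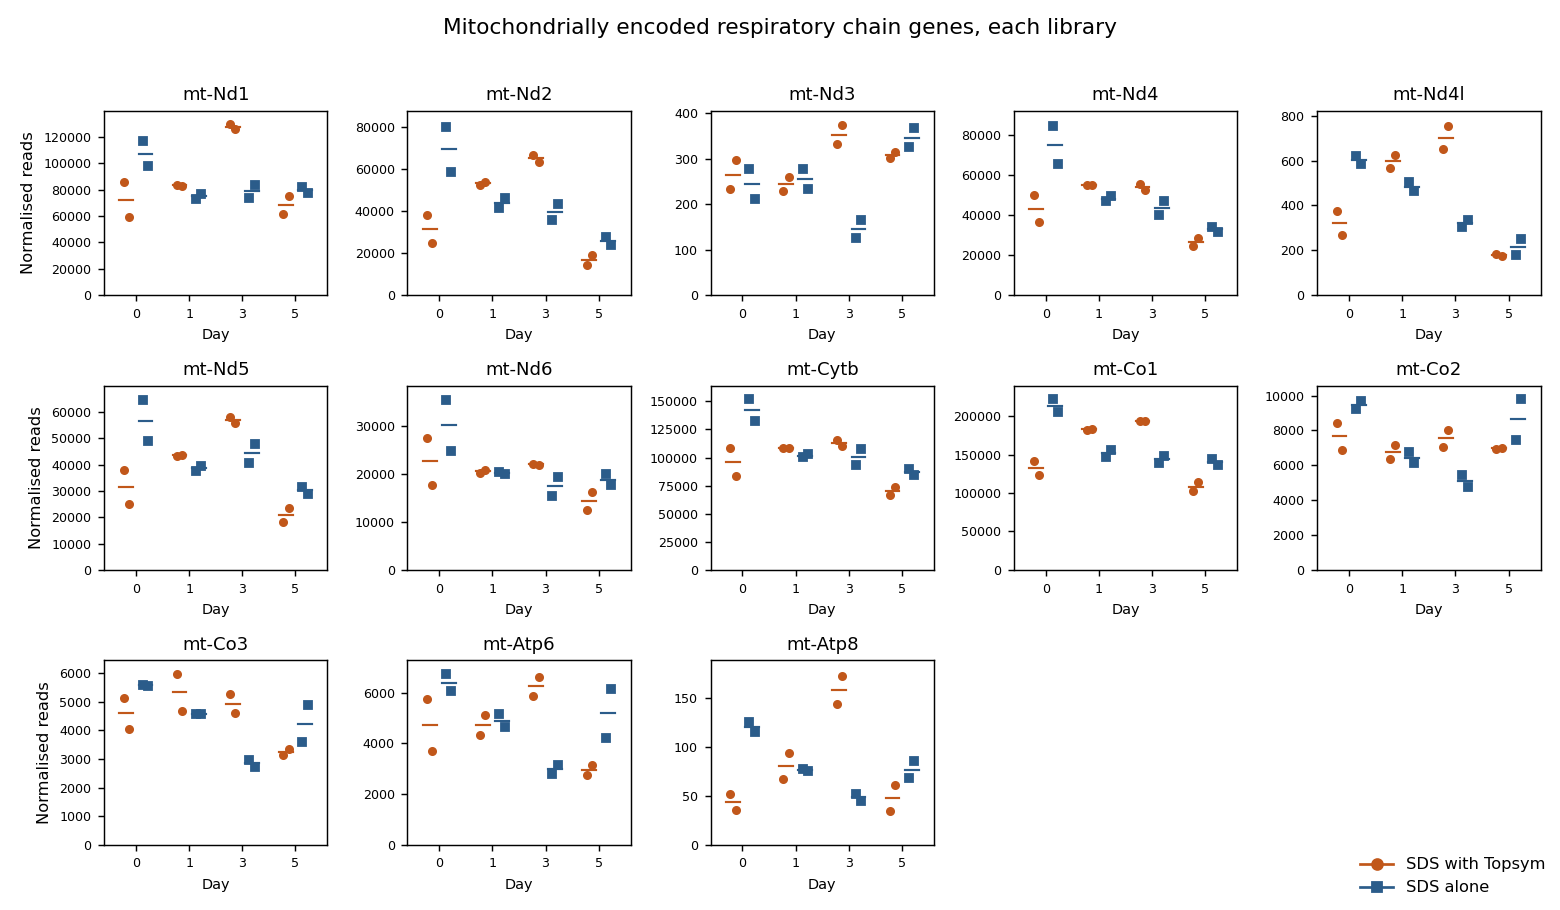
Normalised reads of each of the 13 mitochondrial genes in each library (y axis, own scale per panel) by day (x axis); orange circles are SDS with Topsym, blue squares SDS alone, and bars the mean of 2 libraries. In most panels, as for mt-Co1, the Topsym libraries lay below those of SDS alone at day 0, above them at day 3 and below them again at day 5.

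Set side by side at each day, Topsym libraries had less mitochondrial RNA at day 0, more at day 3 and less at day 5. At day 0, 8 of the 13 were lower with Topsym and 0 higher (median -0.59), where 11.2% of all genes were lower and 10.8% higher. In either direction, 22.0%, 9.8%, 43.8% and 46.8% of all genes were called at days 0, 1, 3 and 5. mt-Nd2 differed by -1.15, mt-Nd4l by -0.93 and mt-Atp8 by -1.48 on the log2 scale; a fit of only the compared libraries called 4 of the 13. At day 1, only mt-Co1 was called (log2 0.27, SE 0.066, adjusted p = 0.014), against 5.51% of all genes higher and 4.29% lower. It was not called without replicate 1 of SDS alone, or without replicate 1 or replicate 2 of SDS with Topsym, at that day. At day 3, 9 were higher and 0 lower (median 0.70), against 20.8% and 22.9% of all genes. mt-Co1 had 194070.3 and 193429.5 reads with Topsym and 139429 and 148856 with SDS alone at day 3, with no overlap (log2 0.43, SE 0.066, adjusted p = 5.2e-05). mt-Atp6 had 5862 and 6631 with Topsym and 2799 and 3159 with SDS alone (log2 1.07, SE 0.17, adjusted p = 8.6e-05).

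At day 5, 7 of the 13 were lower with Topsym and 0 higher (median -0.36), against 24.2% and 22.6% of all genes. The 7 were mt-Nd2, mt-Nd5, mt-Cytb, mt-Co1, mt-Co2, mt-Co3 and mt-Atp6, with differences between -0.29 and -0.79 on the log2 scale. mt-Co1 had 103047 and 113928 reads with Topsym and 144934 and 136915 with SDS alone at day 5, without overlap. This count moved with the analysis: it was 2 without replicate 1 of SDS with Topsym at day 5, 0 in a fit of only the compared libraries, and 12 when scaled to total reads.

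The difference between the treatments itself changed with the day. Measured as the Topsym difference at a day minus the one at day 0, 8 of the 13 mitochondrial genes had a positive change and 0 a negative one at day 1 (median 0.74), where 9.18% of all genes were higher and 8.06% lower. In either direction, 17.2%, 39.0% and 34.9% of all genes were called at days 1, 3 and 5. At day 3 all 13 were higher (median 1.16), against 19.5% of all genes higher and 19.5% lower, from 0.75 for mt-Cytb to 3.18 for mt-Atp8. The day 0 difference enters these values. At day 5, mt-Co1 (0.31), mt-Nd4 (0.50) and mt-Nd4l (0.69) were higher and 0 lower, against 17.3% and 17.7% of all genes. That count was 0 without replicate 1 of SDS alone at day 0 or replicate 2 of SDS with Topsym at day 0, 1 without replicate 2 of either treatment at day 5, and 7 without replicate 1 of SDS with Topsym at day 0. It was also 0 when scaled to total reads or with only the compared libraries, and 1 without the filter.

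Markers of skeletal muscle, a tissue rich in mitochondria, moved with the mitochondrial genes in part. The summed level of 8 muscle markers (Acta1, Ckm, Mb, Tnnt3, Myh4, Myh1, Actn3 and Pygm) was 141959.9 and 145444 normalised reads in the libraries of SDS with Topsym at day 0, 447941 and 454229.6 at day 1, 185176 and 190827 at day 3 and 117683 and 120294 at day 5. With SDS alone it was 414048 and 418623 at day 0, 305816 and 315542 at day 1, 396338 and 399982 at day 3 and 75823 and 79589 at day 5. All 8 markers fell at day 1 and at day 5 of SDS alone, all 8 were lower with Topsym at day 0, and none was at 0 in any group. At days 3 and 5 they ran against each other: 8 of 8 muscle markers were lower with Topsym at day 3 while 9 mitochondrial genes were higher, and 7 of 8 were higher at day 5 while 7 mitochondrial genes were lower. Of 3 markers of brown adipocytes (Ucp1, Cidea and Elovl3), also rich in mitochondria, the defining marker Ucp1 had under 10 reads in every library, did not pass the filter and was at 0 in both libraries of days 1 and 5 of SDS alone. Cidea and Elovl3 are also known from sebaceous glands. The 3 summed to 301 and 403 reads at day 0 with Topsym, 1365 and 1439.8 at day 1, 2099.9 and 2244 at day 3 and 1422 and 1589 at day 5. With SDS alone they summed to 1798 and 1981, 1271 and 1323, 1525 and 1525 and 1067 and 1185 at those days. Like the mitochondrial genes, this sum was lower with Topsym at day 0 and higher at day 3, but at day 5 it was higher where they were lower.

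The 5 adipocyte markers (Adipoq, Plin1, Fabp4, Cidec and Lep) summed to 5204 and 5306 reads at day 0 with Topsym, 18756 and 19078 at day 1, 21816 and 21892 at day 3 and 3456 and 3568 at day 5, and to 9162 and 9233, 17064 and 18308, 36866 and 38188 and 2527 and 2651 at those days with SDS alone. Of these, 1 was at 0 in both libraries of day 5 with Topsym. With Topsym they moved in the directions of the mitochondrial genes, with 5 rising at day 1, 4 rising and 1 falling at day 3 and 5 falling at day 5, and 4 were lower with Topsym at day 0. With SDS alone their sum was highest at day 3, when 12 mitochondrial genes were down. The 4 smooth muscle markers (Acta2, Myh11, Cnn1 and Tagln) summed to 7237 and 7385 reads at day 0 with Topsym, 13467 and 13509.7 at day 1, 4615 and 4892 at day 3 and 645 and 649 at day 5, and to 12835 and 13239, 14378 and 14790.2, 4306 and 4479.8 and 480.4 and 484 at those days with SDS alone. Of these, 3 were lower with Topsym at day 0 and 2 higher at day 3. The 5 red blood cell markers (Hba-a1, Hba-a2, Hbb-bs, Hbb-bt and Alas2) summed to 9701 and 11019 reads at day 0 with Topsym, 3197 and 3504 at day 1, 1373 and 1707 at day 3 and 2713 and 3183 at day 5, and to 2401 and 3070.1, 5005 and 5484, 9336 and 10954 and 9114 and 9924 at those days with SDS alone. They ran opposite to the mitochondrial genes at several points: 5 were higher with Topsym at day 0 and 5 lower at day 3, and 5 rose at day 3 of SDS alone. At day 5, 5 were lower with Topsym, as were 7 mitochondrial genes. The part of these tissues and cells in the mitochondrial levels was not tested.

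Nuclear genes of the chain went through a dip and then a broad rise during SDS alone. At day 1, 61 of the 94 fell and 0 rose (median log2 change -0.28), against 13.5% of all genes falling and 12.8% rising. The falls covered every complex: 6 of 7 core and 20 of 30 accessory subunits of complex I, 3 of 4 of complex II, 5 of 9 of complex III, 9 of 13 of complex IV and 11 of 17 of complex V. Here and below, complex IV includes Cox5b-ps and the accessory subunits include Ndufb1-ps. Both are listed as protein-coding, but their symbols have the form of pseudogene names, so they may not be separate subunits from Cox5b and Ndufb1. Most were small: Atp5o, a subunit of the stalk that links the parts of complex V, fell by 0.70, Ndufaf5, an assembly factor of complex I, fell by 0.62, and Sdha, the flavoprotein of complex II, fell by 0.22. Sdha had 4736 and 4736 reads at day 1 and 5622 and 5412 at day 0, with no overlap. The count was 40 without replicate 2 of SDS alone at day 0 and 39 without replicate 2 at day 1.

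At day 3 of SDS alone, 11 nuclear genes rose and 28 fell (median -0.082), against 25.4% and 24.2% of all genes, and 7 rose and 39 fell when scaled to total reads. Ndufa4, first assigned to complex I and now placed in complex IV, rose (log2 0.47, SE 0.078, adjusted p = 8.91e-05): its libraries held 2626 and 2439.6 reads at day 3 and 1769 and 1883 at day 0. Atp5b, the catalytic beta subunit of complex V, rose by 0.34. Uqcr10, a small subunit of complex III, and Uqcrfs1, its Rieske iron-sulphur protein, rose by 0.35 and 0.34. Among the falls, Ndufa4l2, a relative of Ndufa4 that is induced by hypoxia in other tissues, fell by 1.82, and the complex I assembly factors Ndufaf5 and Ndufaf1 fell by 0.69 and 0.65.

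At day 5 of SDS alone, 68 of the 94 rose and 14 fell (median 0.43), against 30.7% and 35.8% of all genes, whose median was -0.094. Scaling to total reads, which lowers the median of all genes by a further 0.33, left 34 higher and 23 lower. All 9 genes of complex III, all 13 of complex IV outside the tissue forms and all 17 of complex V rose, as did 5 of 7 core and 20 of 30 accessory subunits of complex I. Scaled to total reads, 5 rose and 0 fell in complex III, 7 and 0 in complex IV, 9 and 2 in complex V, 1 and 2 among core and 10 and 7 among accessory subunits of complex I. In complex II, Sdha (-0.30), Sdhb (-0.32) and Sdhc (-0.24) fell and Sdhd (0.54) rose. Ndufa4 had 4639 and 5024 reads at day 5 and 1769 and 1883 at day 0, the largest rise among the nuclear genes (log2 1.40, SE 0.078, adjusted p = 1.07e-10). Cox6b1, a complex IV subunit on the side of the intermembrane space, had 5722 and 5809 at day 5 and 2777 and 2958 at day 0 (log2 1.01, SE 0.054, adjusted p = 7.14e-11). Cox7a2, the widely expressed form of its complex IV subunit, rose by 0.94, and Atp5mpl, a small complex V subunit, by 1.00. Ndufab1, the mitochondrial acyl carrier protein, fell by 0.64 and Ndufb2, a complex I accessory subunit with few reads per kilobase, fell by 1.10.

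**Figure D3:**
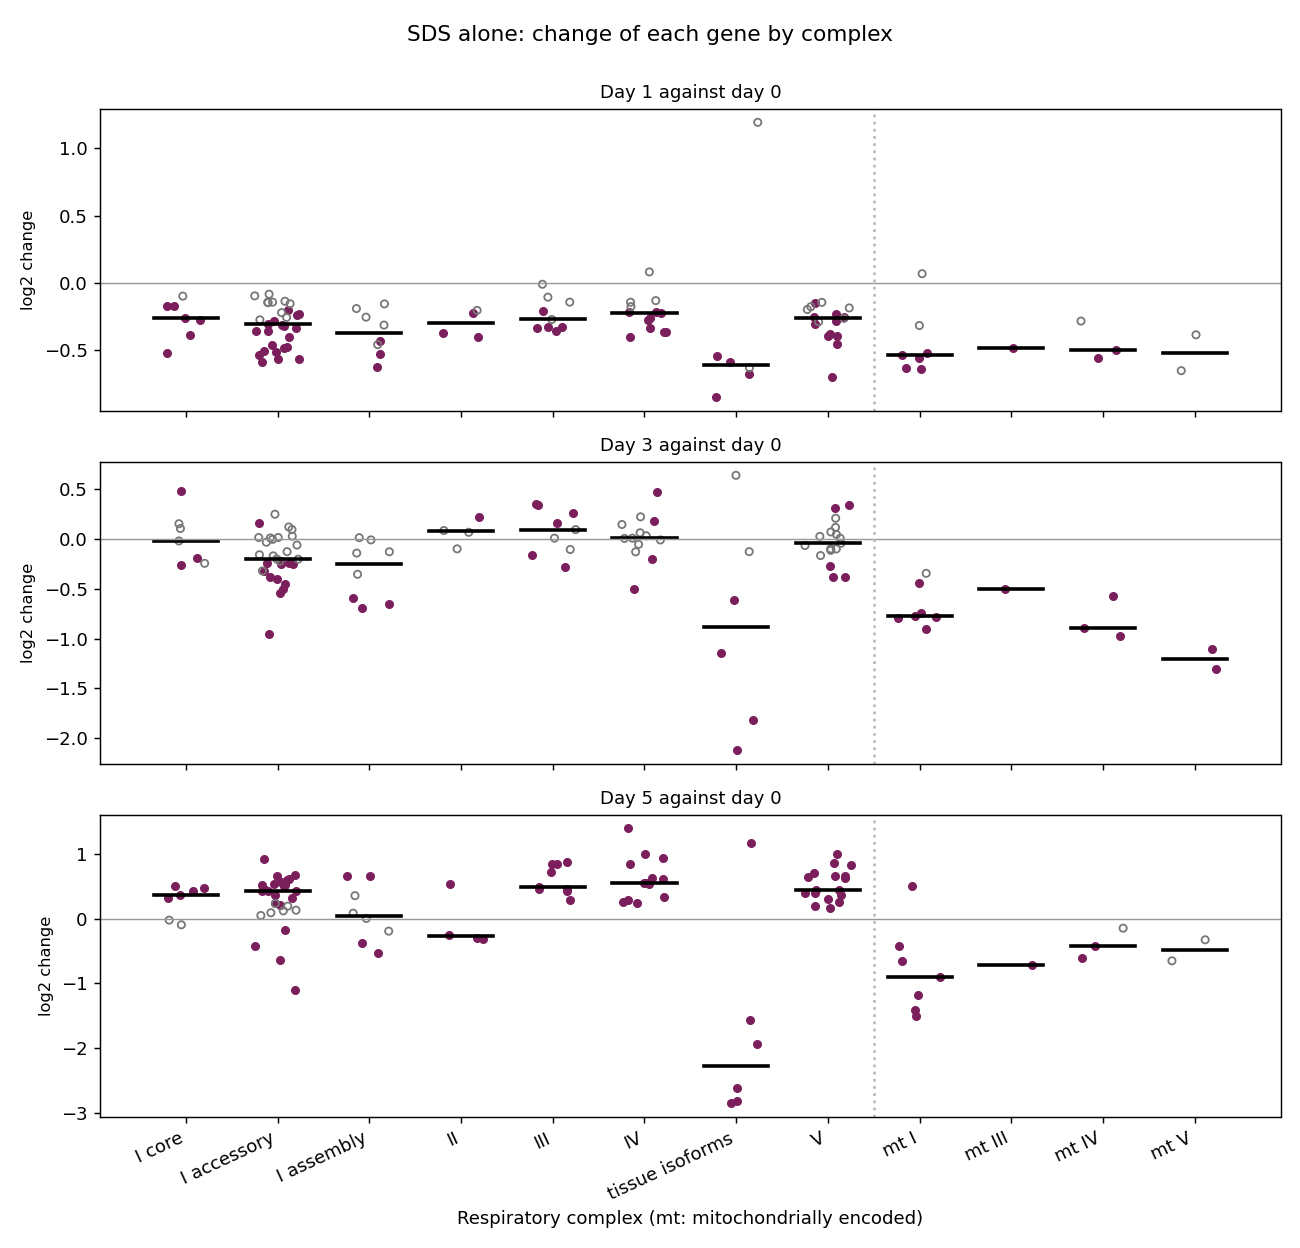
Log2 change of each of the 107 genes at days 1, 3 and 5 of SDS alone against day 0 (y axis), grouped by complex (x axis, mitochondrial genes right of the dotted line); filled points were past the threshold, open points not, and bars are medians. Nearly all groups lay below 0 at day 1, and at day 5 complexes III, IV and V lay above it while the tissue forms and most mitochondrial genes lay below.

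At day 5 of SDS alone the muscle forms fell while the widely expressed forms rose. Cox6a2, Cox7a1 and Cox8b are the heart and skeletal muscle forms of complex IV subunits, and Cox6a1, Cox7a2 and Cox8a are the widely expressed forms. Cox6a2 had 1001 and 1005 reads at day 0 of SDS with Topsym, 2374 and 2511 at day 1, 1098 and 1085 at day 3 and 1486 and 1484 at day 5. With SDS alone it had 2598 and 2548 at day 0, 1670.4 and 1555 at day 1, 2367 and 2346 at day 3 and 771 and 584 at day 5. With Topsym the libraries were thus low at day 0 and high at day 1, and with SDS alone they were lowest at day 5; the treatments did not overlap at any of the 4 days. At day 5 of SDS alone the log2 change was -1.94 for Cox6a2, -2.62 for Cox8b and -2.85 for Cox7a1 (SE 0.20 and adjusted p = 2.81e-09 for Cox7a1). Cox7a1 had 42.7 and 63.8 reads at day 5 and 381 and 385 at day 0. The widely expressed forms moved the other way at that day: Cox6a1 (0.85), Cox7a2 (0.94) and Cox8a (0.30) rose, though Cox8a was at -0.035 when scaled to total reads.

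Topsym differences in the muscle forms changed sign from day to day. Cox6a2 differed by -1.36 at day 0, 0.60 at day 1, -1.11 at day 3 and 1.15 at day 5, all past the threshold. Cox8b differed by -1.24, 0.38, -1.13 and 1.44 at those days, of which day 1 was not past the threshold. Cox7a1 differed by -1.32 at day 0, 0.55 at day 1 and -1.22 at day 3, and again day 1 was not past the threshold. Its difference at day 5 was not past the threshold either. These signs were those of the muscle markers named above, of which 0 of 8 were higher and 8 lower with Topsym at day 0, 6 higher and 0 lower at day 1, 0 higher and 8 lower at day 3, and 7 higher and 1 lower at day 5. How much of the change in Cox6a2, Cox7a1 and Cox8b followed the amount of muscle in the sample was not tested.

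Ndufa4l2 had 5398 and 5250.4 reads at day 0 with Topsym, 2003 and 2058 at day 1, 2554 and 2745 at day 3 and 17297 and 16228 at day 5. With SDS alone it had 4233 and 3859 at day 0, 2909 and 2658 at day 1, 1104 and 1189 at day 3 and 9013 and 9182 at day 5. The low was at day 1 with Topsym and at day 3 without it, and under either treatment day 5 was highest. It was higher with Topsym at day 3 (log2 1.21, SE 0.061, adjusted p = 1.03e-10) and lower at day 1 (-0.45). Cox4i2, a form of the complex IV subunit Cox4 known from lung, had few reads and a wide error at day 5 (log2 1.60, SE 0.59, adjusted p = 0.0361): it had 28.2 and 20.8 reads with Topsym and 2.85 and 17.0 with SDS alone.

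**Figure D4:**
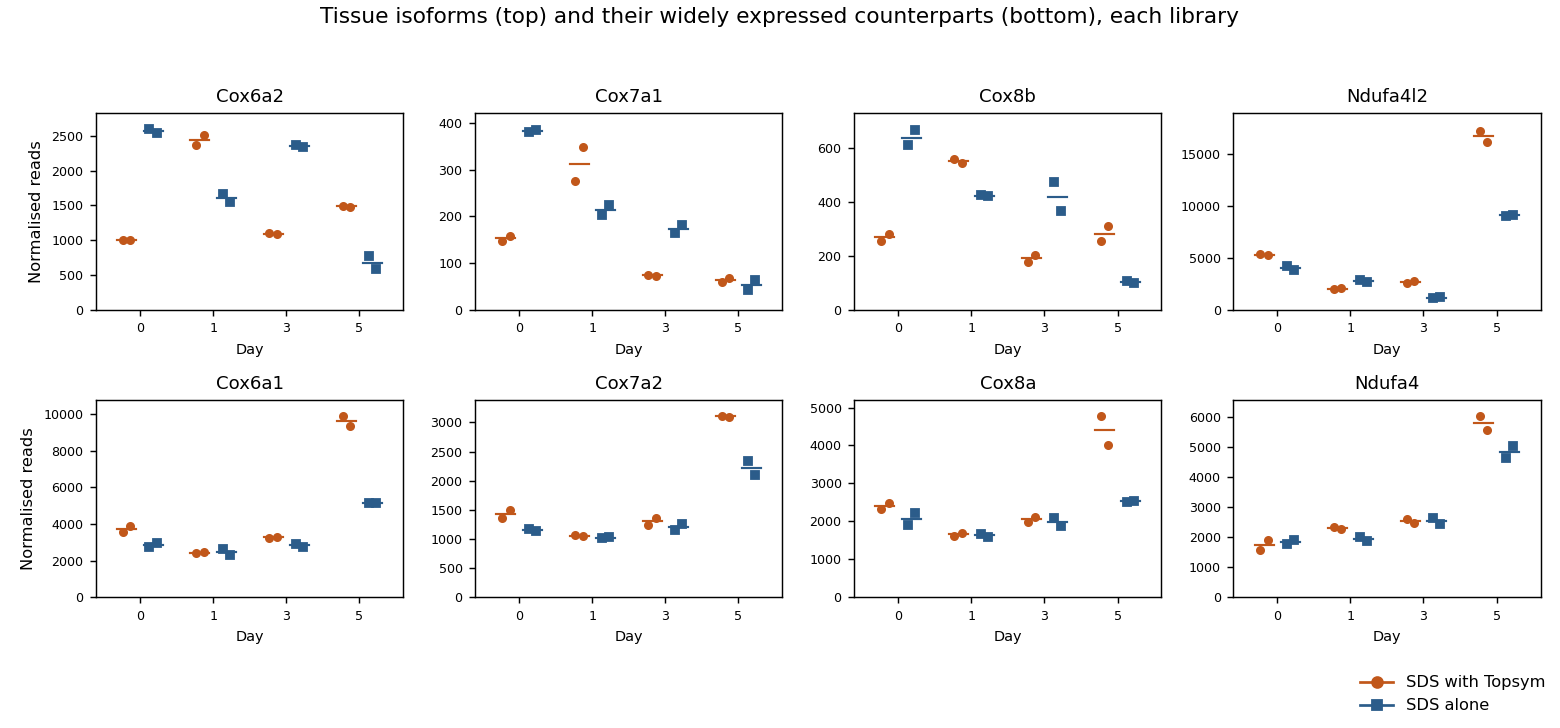
Normalised reads per library (y axes, own scale per panel) by day (x axis) of Cox6a2, Cox7a1, Cox8b and Ndufa4l2 (top row) and of Cox6a1, Cox7a2, Cox8a and Ndufa4 (bottom row); orange circles are SDS with Topsym, blue squares SDS alone, and bars the mean of 2 libraries. The muscle forms were low at day 5 of SDS alone, when the widely expressed forms were high.

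With Topsym, more nuclear genes fell than rose at days 1 and 3, and most rose at day 5. Against day 0 of the same treatment, 15 of the 94 rose and 44 fell at day 1 (median -0.24), with 20.3% and 20.5% of all genes. The falls were mainly in complex I accessory subunits (18 of 30) and complex IV (10 of 13), while of 9 complex III genes 4 rose and 3 fell, and of 7 core complex I genes 3 rose and 1 fell (3 and 3 when scaled to total reads). At day 3, 26 rose and 40 fell (median -0.14), against 27.0% and 28.2%. Cyc1, the cytochrome c1 of complex III, rose by 0.94 and Ndufaf4, a complex I assembly factor, by 1.14, while the assembly factor Ndufaf3 fell by 1.08. Cyc1 had 2858 and 2906 reads at day 3 and 1342 and 1669 at day 0 with Topsym. At day 5, 82 rose and 2 fell (median 0.88), against 32.8% and 37.5% of all genes. The 2 that fell were Cox6b2 (-2.83), a testis form of Cox6b1 with few reads, and Cox7a1 (-1.26).

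Scaled to total reads, which lowers the median of all genes by 0.57 for this comparison, 59 rose and 15 fell, and complex II had 3 of 4 genes rising before this scaling and 3 of 4 falling after it. Atp5g1, which encodes the c subunit of the complex V rotor, had 5369 and 4965 reads at day 5 and 1117 and 1213 at day 0 with Topsym (log2 2.15, SE 0.12, adjusted p = 5.69e-11). Uqcr11, a small subunit of complex III, had 6379 and 5698 at day 5 and 1476 and 1651 at day 0 (log2 1.95, SE 0.086, adjusted p = 3.43e-12). Sdha was at 0.19, Sdhb at 0.10 and Ndufs1, the largest core subunit of complex I, at 0.49 here, but at -0.40, -0.48 and -0.093 when scaled to total reads. Cox6a2 (0.57) and Cox8b (0.058) likewise turned to -0.017 and -0.52 under that scaling. Atp5g1 and Uqcr11 kept their direction under it.

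Between treatments, most nuclear genes were higher with Topsym at day 5, and at the earlier days most were not called. In either direction, 23 of the 94 were called at day 0, against 22.0% of all genes, 14 at day 1, against 9.8%, and 32 at day 3, against 43.8%. The share of the chain genes was thus near that of all genes at day 0, above it at day 1 and below it at day 3. At day 0, 7 were higher with Topsym and 16 lower (median 0.013), against 10.8% and 11.2% of all genes, and 12 were higher and 14 lower when scaled to total reads. Cox6a1 was higher by 0.37 and Ndufa4l2 by 0.40, and Sdha (-0.61) and Cyc1 (-0.42) were lower. At day 1, 12 were higher and 2 lower (median 0.13), against 5.51% and 4.29%. Those higher included Atp5g1 (0.39), Ndufa1 (0.30) and Sdha (0.26), and the lower ones were Ndufa4l2 and Cox7a2l, a factor of respiratory supercomplexes (-0.20). The 14 calls of day 1 became 8 and 7 without replicate 1 or 2 of SDS alone at that day, and 7 and 5 without replicate 1 or 2 of SDS with Topsym. They became 9 when scaled to total reads, 22 without the day 5 libraries and 22 in DESeq2.

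At day 3, 14 were higher with Topsym and 18 lower (median -0.022), against 20.8% and 22.9% of all genes. Ndufaf4 (0.81), Ndufab1 (0.67), Ndufaf2 (0.44) and Ndufs6 (0.44), which serve assembly, acyl carriage or structure of complex I, were higher. Sdhc (-0.45), a membrane anchor of complex II, was among those lower. Ndufaf4 had 727 and 678 reads with Topsym and 411 and 389.8 with SDS alone.

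At day 5, 75 of the 94 were higher with Topsym and 2 lower (median 0.56), against 22.6% and 24.2% of all genes, whose median was -0.0094. By complex, 4 of 7 core and 28 of 30 accessory subunits of complex I were higher, as were 1 of 4 genes of complex II, 8 of 9 of complex III, 12 of 13 of complex IV and 15 of 17 of complex V. Scaled to total reads, 2 core and 19 accessory subunits of complex I were higher, with 6, 10 and 13 genes of complexes III, IV and V. The 2 lower ones were Uqcrc2, a core protein of complex III (-0.18), and Sdha (-0.13). Atp5g1 had 5369 and 4965 reads with Topsym and 1912 and 2076 with SDS alone (log2 1.37, SE 0.12, adjusted p = 1.04e-07). Uqcr11 had 6379 and 5698 with Topsym and 2453 and 2831 with SDS alone (log2 1.19, SE 0.086, adjusted p = 1.49e-08). Atp5k had 4739.7 and 4053 with Topsym and 1894 and 1808 with SDS alone, and it and Atp5e, both small subunits of complex V, were higher by 1.24 and 1.22. None of these pairs of groups overlapped, but that was a condition for naming these genes and adds no support.

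**Figure D5:**
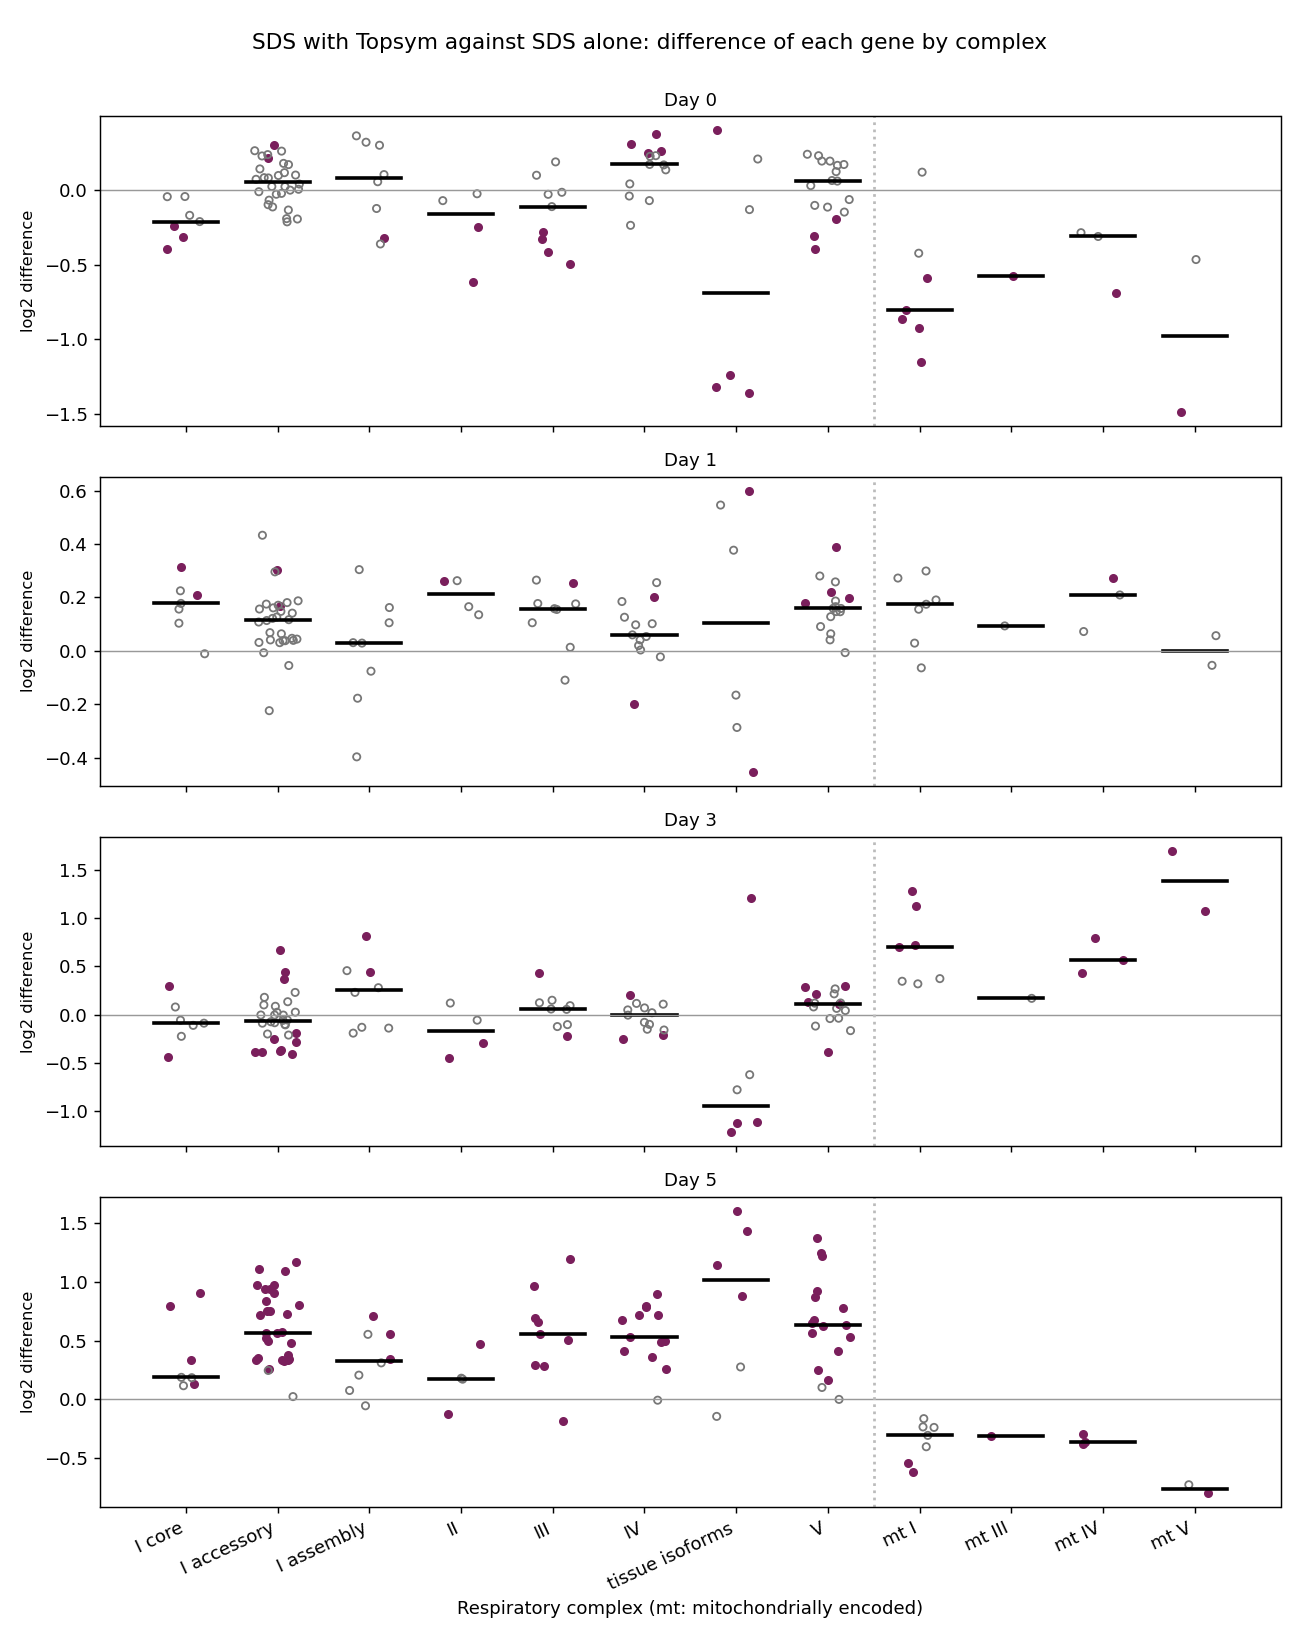
Log2 difference of SDS with Topsym against SDS alone for each of the 107 genes at days 0, 1, 3 and 5 (y axis), grouped by complex (x axis, mitochondrial genes right of the dotted line); filled points were past the threshold, open points not, and bars are medians. At day 5 the nuclear complexes lay mostly above 0 and the mitochondrial genes below it, and at day 3 the mitochondrial genes lay above it.

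The Topsym difference at day 5 minus that at day 0 was higher for 72 of the 94 nuclear genes and lower for 1, Cox7a2l (median 0.51), against 17.3% and 17.7% of all genes, and 47 were called when scaled to total reads. At day 1, 22 were higher and 4 lower on this measure (19 and 7 when scaled to total reads), against 9.18% and 8.06%, and at day 3, 15 were higher and 16 lower, against 19.5% and 19.5%. Sdha, for example, had a difference of 0.88 at day 1, 0.56 at day 3 and 0.49 at day 5. Its day 0 libraries, 3602 and 3600.5 reads with Topsym and 5622 and 5412 with SDS alone, did not overlap and are part of each of these values.

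Keratinocyte markers rose along with the nuclear genes at day 5. Their summed level over 4 markers (Krt5, Krt14, Krt1 and Krt10) was 2299132 and 2333879.6 normalised reads at day 5 and 519105 and 537511 at day 0 with Topsym, and 1505376 and 1606861 at day 5 and 492345 and 503495 at day 0 with SDS alone. All 4 rose under either treatment and all 4 were higher with Topsym at day 5, and none was at 0. At day 3 the sum was 684563 and 696265.5 with Topsym and 271453 and 278757 with SDS alone. All 4 were higher with Topsym at day 3 too, when the nuclear genes were split, with 14 higher and 18 lower. Of the 13 mitochondrial genes, 9 were higher with Topsym at that day and 0 lower. The sum over 4 fibroblast markers was 5018 and 5157 at day 5 and 285388 and 293248 at day 0 with Topsym, and 12175 and 12178 at day 5 and 201616 and 205100.1 at day 0 with SDS alone, with all 4 falling. Neutrophil markers summed to 36237 and 36284 with Topsym and 261288 and 270745 with SDS alone at day 5, with 4 of 5 lower with Topsym. At day 3 the neutrophil sum was 2211 and 2390 with Topsym and 52571 and 53193 with SDS alone, with 5 of 5 lower with Topsym. The fibroblast sum at day 3 was 24962 and 25326 with Topsym and 82668 and 84174 with SDS alone, with all 4 lower with Topsym. The part of these cells in the nuclear and mitochondrial levels was not tested.

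Other mitochondrial genes encoded in the nucleus moved with the chain at day 5 to different extents. Of 77 genes for proteins of the mitochondrial ribosome, which translates the 13 mitochondrial messages, 62 rose and 2 fell at day 5 of SDS alone (median 0.54), with Mrpl20 (1.54) and Mrpl12 (1.30) highest. With Topsym, 70 rose and 0 fell against day 0 (median 0.77), and 51 were higher and 1 lower than with SDS alone at day 5 (median 0.41). All genes rose and fell in 30.7% and 35.8% of cases at day 5 of SDS alone and in 32.8% and 37.5% with Topsym, and 22.6% were higher and 24.2% lower with Topsym than with SDS alone. Scaled to total reads, 33 of the ribosome genes rose and 6 fell with Topsym, 30 rose and 8 fell with SDS alone, and 31 were higher and 4 lower with Topsym than with SDS alone. The 13 genes of the citric acid cycle were divided at day 5 of SDS alone, with 6 rising, such as Suclg2 (0.62) and Mdh2 (0.54), and 5 falling, such as Ogdh (-0.51). With Topsym 10 of them rose and 0 fell at day 5, but 3 rose and 7 fell when scaled to total reads, which left 2 rising and 9 falling with SDS alone. At day 0, 10 were lower with Topsym and 0 higher, against 11.2% and 10.8% of all genes.

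Larger single changes were found among genes that feed electron transport or dissipate its gradient. Pdk4, a kinase that shuts off pyruvate dehydrogenase, rose by 4.75 at day 1 and 6.04 at day 3 of SDS alone, and was lower with Topsym at day 3 (-1.66). Ucp3, an uncoupling protein of muscle, rose by 2.86 at day 1 and 3.98 at day 3 of SDS alone and was at -1.90 at day 5. Of the ADP/ATP carriers, the muscle form Slc25a4 fell by 1.99 at day 5 of SDS alone while Slc25a5, the form of dividing cells, rose by 1.18. Of 10 carriers and electron shuttle genes tested, 5 rose and 4 fell at that day. Of the 12 genes for pyruvate entry, 2 rose and 3 fell, and of 13 for ubiquinone synthesis, 3 rose and 4 fell. Among all genes 30.7% rose and 35.8% fell. The shares in the pyruvate and ubiquinone lists were no larger than these, while both shares among the carriers were larger. Scaled to total reads, the counts rising and falling became 2 and 4 carriers, 1 and 9 pyruvate genes, and 0 and 7 ubiquinone genes. In ubiquinone synthesis Pdss2 fell by 1.27 at day 5 of SDS alone. With Topsym, 9 of the ubiquinone genes rose and 1 fell at day 5 against day 0, where 32.8% of all genes rose and 37.5% fell. Scaled to total reads, 5 rose and 3 fell.

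Of 19 tested genes that copy or process mitochondrial DNA and RNA, 3 rose at day 1 of SDS alone, when 12.8% of all genes did, among them Trmt10c (0.57), which is part of mitochondrial ribonuclease P, and 0 fell. At day 5 of SDS alone, when 30.7% of all genes rose and 35.8% fell, 5 rose, led by Elac2 (0.98), which cuts tRNA ends, and 4 fell, among them Polg (-0.59), the mitochondrial DNA polymerase (1 rose and 8 fell when scaled to total reads). Before that scaling, the shares rising and falling were below those of all genes. With Topsym at day 3, 8 of 19 were higher than with SDS alone, led by Fastkd2 (0.89), and 0 lower, against 20.8% and 22.9% of all genes. Of 12 regulators of mitochondrial biogenesis, Ppargc1a and Pprc1 rose at day 1 of SDS alone (0.97 and 0.22), and at day 5, 6 rose and 4 fell, with Ppargc1b (0.92) and Gabpa (0.64) highest and Esrrb (-3.61) and Esrrg (-2.39) lowest, but 2 rose and 6 fell when scaled to total reads. Of 36 further assembly factors tested, 13 rose and 8 fell at that day (7 and 13 when scaled to total reads), with Sdhaf1, of complex II, at 1.30 and Cox17, a copper chaperone of complex IV, at -0.98.

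Transcript length moved with the day 5 values over all genes. Among protein-coding genes outside the chain, the median log2 change at day 5 of SDS alone was 0.33 for those with under 1000 bases of exon, 0.10 for 1000 to under 2000, -0.063 for 2000 to under 4000 and -0.23 for 4000 or more. The nuclear chain genes in the same bins had medians of 0.53, 0.37, 0.40 and 0.45, over 23, 37, 23 and 11 genes. For SDS with Topsym against SDS alone at day 5, the other genes had medians of 0.14, 0.19, 0.05 and -0.11 from the shortest to the longest bin, and the nuclear chain genes 0.71, 0.69, 0.33 and 0.53. Over the 94 nuclear genes, Spearman's rho of exonic length and log2 change was -0.34 for this comparison and -0.13 at day 5 of SDS alone, as a description across genes of the same libraries. The median of the chain genes was above that of the other genes in each bin of both comparisons, and the part of length in their changes was not tested.

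The mitochondrial ribosomal RNAs, which lie outside the 107 genes, were higher with Topsym at day 5, when 7 of the 13 messages were lower. mt-Rnr1, the small rRNA, had 13751 and 15698 normalised reads at day 5 with Topsym and 4649 and 4096 at day 5 with SDS alone, without overlap (log2 1.75, SE 0.07, adjusted p = 1.3e-11). mt-Rnr2, the large rRNA, had 18713 and 20898 with Topsym and 6307 and 5428 with SDS alone (log2 1.76, SE 0.10, adjusted p = 5.32e-10). At the other days the Topsym difference was -0.054, 0.034 and 0.44 for mt-Rnr1 and -0.41, 0.16 and -0.0076 for mt-Rnr2, at days 0, 1 and 3. The sources used here do not say how ribosomal RNA was removed or selected against, and rRNA levels can depend on that step in each library.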

How the data were processed

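RNA from whole mouse skin was sequenced in 16 libraries, 2 in each of 8 groups. The values are the authors' deposited signal, normalised reads per gene; the submitters' processing notes name Trim Galore 0.6.7, HISAT2 2.2.1, featureCounts 2.0.3, DESeq2 2.11.40.8 and the build mm10. In each library all values were whole multiples of 1 step (relative tolerance 0.0001; values under 1000 reads lay within 4.86e-07 reads of a whole number), so whole reads were recovered for 100% of values. Up to a constant, the step equals the reciprocal of the DESeq2 size factor of those reads to within 0.000237%. The sources used here do not give the strand setting or the removal of ribosomal RNA.

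The 19189 of 32078 genes that reached 10 normalised reads in 2 or more libraries were tested on log2(value + 1) with limma 3.58.1 in R 4.3.3, with 1 fit over all 8 groups (8 residual degrees of freedom) and Benjamini-Hochberg adjustment. Because 1 fit pools the spread over groups, a lone library left in a group is assumed to vary like the others. On the recovered reads, edgeR 4.0.16 called 5860 and DESeq2 1.42.0 called 5712 genes at day 1 of SDS alone, where limma called 5037, and 8285 and 8192 for Topsym against SDS alone at day 5, where limma called 8976. Further alternatives were TMM and total-read scaling, a pseudocount of 4, no filter, a fit of only the libraries compared, a replicate block, and leaving out each library or all of day 5. The fit was first checked on simulated data for day 1 against day 0 of SDS alone. Of 67 genes given a 1.5-fold change, 37 (55.2%) were recovered, so a gene not called may still have changed by that much. At 2-fold 52 of 67 and at 4-fold 58 of 66 were recovered, and 3.29% of all calls were false. No other genes of the 18884 simulated were changed, while limma called 5037 in the real comparison. Both shares depend on how many genes change, so they hold for the simulated setting only.

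The genes and the lists of other pathways and cell types were chosen with earlier results of these data known. Named in every comparison were the 13 mitochondrial genes, 10 core nuclear subunits and the pairs of tissue forms; named beside these were the 5 largest called rises and falls (2 for the remaining comparisons) whose groups did not overlap and whose higher group averaged 100 reads or more, at most 2 a direction from each list, and in full any result of at most 3 genes. Gene positions are from GENCODE M21, promoters from RefSeq GRCm38.p6. The main fit did not pair the libraries by replicate number. The correlations of same-numbered libraries given below cannot show whether they were paired. Some results that the naming rule selects are not reported here.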

Additional observations from a re-analysis of the deposited data

Results flagged for a closer look

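The Topsym difference changed with the day for the named genes given here. Each value is the log2 difference of SDS with Topsym against SDS alone at that day minus the same difference at day 0, tested as an interaction term in limma with Benjamini-Hochberg adjustment over all 19189 genes, and all were past an adjusted p of 0.05. They rest on the same 4 day 0 libraries, so a gene that already differed at day 0 carries that difference into every later value.

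At day 1, the mitochondrial genes were mt-Atp8 (1.54), mt-Nd2 (1.42), mt-Nd4l (1.22), mt-Nd5 (1.04), mt-Nd4 (0.99), mt-Co1 (0.96), mt-Nd1 (0.74) and mt-Cytb (0.67). Among nuclear genes, the values were Cox6a2 (1.96), Cox7a1 (1.86), Cox8b (1.62), Sdha (0.88), Ndufs1 (0.60), Cyc1 (0.59), Atp5b (0.59), Atp5a1 (0.53), Sdhb (0.51), Ndufv1 (0.47), Uqcrc1 (0.39), Cox6a1 (-0.40), Cox7a2l (-0.46) and Ndufa4l2 (-0.85).

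At day 3, the mitochondrial genes were mt-Atp8 (3.18), mt-Nd4l (2.05), mt-Nd2 (1.87), mt-Atp6 (1.53), mt-Nd1 (1.29), mt-Nd5 (1.24), mt-Nd3 (1.16), mt-Co1 (1.12), mt-Nd4 (1.12), mt-Co3 (1.08), mt-Co2 (0.88), mt-Nd6 (0.77) and mt-Cytb (0.75). Among nuclear genes, the values were Ndufaf4 (1.13), Cyc1 (0.85), Ndufa4l2 (0.81), Ndufs1 (0.69), Sdha (0.56), Atp5b (0.53), Atp5a1 (0.42), Uqcrc1 (0.41), Cox4i1 (-0.39), Ndufa1 (-0.61) and Ndufa2 (-0.71).

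At day 5, the mitochondrial genes were mt-Nd4l (0.69), mt-Nd4 (0.50) and mt-Co1 (0.31). Among nuclear genes, the values were Cox8b (2.68), Cox6a2 (2.50), Cox7a1 (1.59), Cyc1 (0.92), Cox5a (0.91), Uqcrc1 (0.84), Atp5b (0.65), Cox8a (0.57), Cox4i1 (0.55), Cox6a1 (0.53), Ndufs1 (0.51), Ndufv1 (0.50), Sdha (0.49), Ndufa4l2 (0.48), Sdhb (0.42), Ndufa4 (0.33), Atp5a1 (0.31) and Cox7a2l (-0.27).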

How the results depend on the processing

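Over all alternatives, 11067 of the values of named genes kept their side of the threshold, 355 lost the call and 210 gained it. Of the 11067, 10956 kept their sign and 111 changed it with neither value past the threshold, 60 of them in mitochondrial genes and 15 under total-read scaling. There, with Topsym at day 5 against day 0, mt-Nd3 was at -0.35 in place of 0.23 and mt-Atp8 at -0.46 in place of 0.11. A further 6 values changed sign with at least 1 of the values past the threshold, all when scaled to total reads: Cox8a at day 5 of SDS alone (-0.035), and at day 5 with Topsym against day 0 Ndufs1 (-0.093), Sdha (-0.40), Sdhb (-0.48), Cox6a2 (-0.017) and Cox8b (-0.52). That scaling moved the median of all genes by -0.33 at day 5 of SDS alone, -0.57 at day 5 with Topsym, -0.23 for Topsym against SDS alone at day 5 and -0.24 for the difference of differences at day 5. It gave 9 nuclear calls for Topsym against SDS alone at day 1, 12 mitochondrial calls at day 5, and 47 nuclear and 0 mitochondrial calls for the day 5 difference of differences. With only the compared libraries in the fit, mitochondrial calls were 3 at day 1 and 5 at day 5 with Topsym against day 0, 4 and 0 for Topsym against SDS alone at days 0 and 5, and 0 for the day 5 difference of differences. Nuclear calls for Topsym against SDS alone at day 1 were 22 without the day 5 libraries and 22 in DESeq2, and mitochondrial calls for the day 5 difference of differences were 1 without the filter. The denominator was also taken without the 10 highest genes outside the mt- genes. The mitochondrial share was then 2.86%, 3.22% and 1.31% at days 1, 3 and 5 with Topsym, and 2.58% and 1.87% at days 1 and 5 of SDS alone. The cause of these moves was not tested. Leaving out each library in turn gave 39 to 64 nuclear and 4 to 8 mitochondrial calls at day 1 of SDS alone, 2 to 8 and 5 to 10 mitochondrial calls at days 1 and 5 with Topsym against day 0, 5 to 18 nuclear calls for Topsym against SDS alone at day 1, 0 to 1 and 2 to 9 mitochondrial calls at days 1 and 5, and 0 to 7 for the day 5 difference of differences. Same-numbered libraries did not deviate together (28 pairs of groups, correlations from -0.031 to 0.030), and with a replicate block no count moved by over 1.5 times: nuclear calls were 60 at day 1 and 81 at day 5 of SDS alone, 85 at day 5 with Topsym, and 11 and 77 for Topsym against SDS alone at days 1 and 5. Of 308 called changes of named genes, 5 lost the call under that block. Depth limits the lowest genes most: Cox4i2 had 2.85 to 61.3 normalised reads and mt-Atp8 34.3 to 172. Summing mitochondrial genes with their near-identical nuclear copies, an alternative chosen after seeing the data, cost 4 of the 308 calls.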
